A study of Bos taurus with 24 samples.

Results

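The comparison described here is that of macrophages exposed to Escherichia coli (E. coli) for 3 hours, between cows with a high and cows with a low nitric oxide response, as the cells stood at the end of the exposure and without correction for the control wells. It rests on 6 of the 24 mRNA libraries of the study, 3 of each responder group. The study classed Holstein dairy cows as high or low responders by the nitric oxide that their macrophages released in culture, and all cows were lactating females. Monocytes that adhered from blood were grown for 6 days with 5 ng/ml of recombinant bovine GM-CSF into monocyte-derived macrophages (MDMs), and 1 well per cow and time point received E. coli inactivated with paraformaldehyde at 5 bacteria per cell, while a further well of the same cow was left as control. No gene was altered in these cells, both groups had the same culture and the same bacteria, and each library is 1 well of 1 cow, so that the spread within a group is the spread between 3 cows. The phenotype is a class taken from a nitric oxide assay, so that the genes of nitric oxide synthesis are not independent of how the groups were formed.

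Macrophages recognise E. coli mainly through its lipopolysaccharide, which CD14 passes to the receptor TLR4. The signal runs through NF-kB to cytokines and chemokines, and through interferon regulatory factors to type I interferon, which acts back on the cells and raises a large group of interferon-induced genes. Nitric oxide is made from arginine by the inducible synthase NOS2, and ASS1 recycles citrulline towards arginine. Several of the genes that NF-kB raises, such as TNFAIP3, TNIP1 and BIRC3, in turn feed back on the same signal.

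The expected counts assigned to genes summed to 6589401, 10365854 and 12164779 in the high responder libraries 92, 93 and 94, and to 9153329, 6475372 and 14615657 in the low responder libraries 91, 92 and 93. The numbers are the codes of the libraries in the labels and do not match cows between the groups. The totals overlapped between the groups (exact two-sided permutation test, p = 1.0, n = 3 per group, for which 0.1 is the smallest possible p). In each library, 10 genes took between 10.5% and 12.3% of the total. Of 24616 genes listed, 10726 had enough counts for edgeR's default filter and were tested, and 2186 of these had a symbol here. The symbols come from shortened copies of supplementary tables, 1 of which is ordered in part by the difference between the groups at 18 hours in these same cows, so that the named genes are not a random share of all genes.

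**Figure D1:**
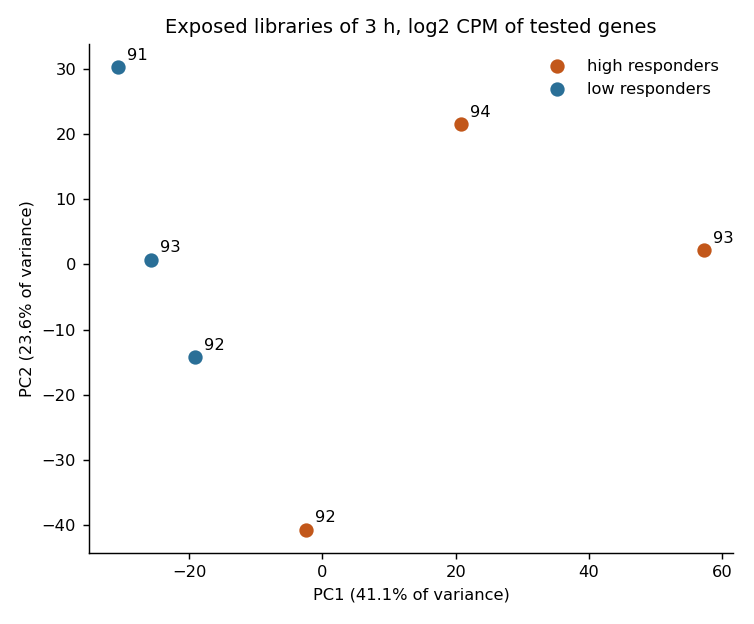
Principal component (PC) analysis of log2 CPM (counts scaled to a common normalized library size) of the 10726 tested genes. Each point is 1 exposed library of 3 hours, labelled with its library code, with high responders in orange and low responders in blue. The first component runs from -30.7 to -19.1 in the low responder libraries and from -2.48 to 57.2 in the high responder libraries.

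The first principal component held 41.1% of the variance and the second 23.6%. Both groups lay apart on the first component, on which the high responder libraries 92, 94 and 93 stood at -2.48, 20.7 and 57.2 and the low responder libraries between -30.7 and -19.1. The high responder library 92 stood closest to the low responders. Across the tested genes, its log2 CPM correlated at 0.970 and 0.968 with the low responder libraries 92 and 93, and at 0.953 and 0.945 with the other libraries of its own group. The 3 low responder libraries correlated between 0.966 and 0.972 with each other. The count of called genes and the medians of the lists of type I interferon-induced and NF-kB genes are also given without this library.

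The labelled cell type was read from the 6 of 16 macrophage markers that had a symbol. Their summed level was 5901, 7067 and 5244 CPM in the high responder libraries 92, 93 and 94, and 2959, 4017 and 4308 CPM in the low responder libraries 91, 92 and 93. The 3 high responder libraries were all above the low responder libraries, which in an exact two-sided permutation test gave p = 0.1, the smallest possible with n = 3 per group. The most abundant of these markers was LGMN, the lysosomal cysteine protease legumain, and its difference makes most of that gap. CD68, a lysosomal membrane protein of macrophages, had 1527 ± 198 CPM in high and 1338 ± 206 CPM in low responders (SD, n = 3), and CD14 had 352 ± 76.7 and 230 ± 93.8 CPM. Markers of other cells were near 0: the T cell markers with a symbol (2 of 12) summed to 6.46 ± 4.89 and 6.52 ± 7.22 CPM, and the markers of B cells, NK cells, neutrophils and dendritic cells with a symbol (1 each) to at most 2.97 CPM in any library. The NK cell marker PRF1 had 1.085 ± 0.534 CPM in high and 0.426 ± 0.039 CPM in low responders, with p = 0.1 in the exact permutation test. The erythroid marker SLC4A1 was at 0 in all 6 libraries, and none of 9 platelet markers had a symbol. Fibroblast and endothelial markers (2 of 10, mostly KDR) summed to 1.37 ± 1.22 CPM in high and 3.49 ± 0.97 CPM in low responders, with p = 0.2 in the exact permutation test. In these bulk libraries, fewer cells of a type and less RNA per cell cannot be told apart.

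With edgeR's quasi-likelihood test, 9 genes passed an adjusted p below 0.05 and a fold change above 1.5, which was 0.0839% of the genes tested. Of these, 3 were higher in high responders (0.0280% of the genes tested) and 6 were lower (0.0559%). At an unadjusted p below 0.05, 859 genes were higher (8.01%) and 511 were lower (4.76%), but with upper-quartile factors in place of TMM these were 644 and 731, so that the balance between the directions depends on the scaling. The groups did not overlap in 1044 genes with higher values in high responders (9.73%) and in 1004 with lower values (9.36%). The count of called genes was 72 without the high responder library 92, all 9 genes among them, 3 without the high responder library 94, and 0 without the low responder library 91 or 92, where 790 and 1330 genes were below 0.05 before adjustment. Of the 9 genes, 5 had a symbol (0.229% of the tested genes with one). Fitted to the same counts, DESeq2 called 283 genes (2.75%), of which 184 were higher (1.79%) and 99 lower (0.961%). The 9 genes were among them, and DESeq2 called these 9 also with any 1 library left out. With the control wells of 3 hours in the same fit (12 libraries), edgeR called 9 genes between the exposed wells, of which 4 were shared with the 9 described here. That fit had no term for cow and counted wells of the same cow as independent.

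**Figure D2:**
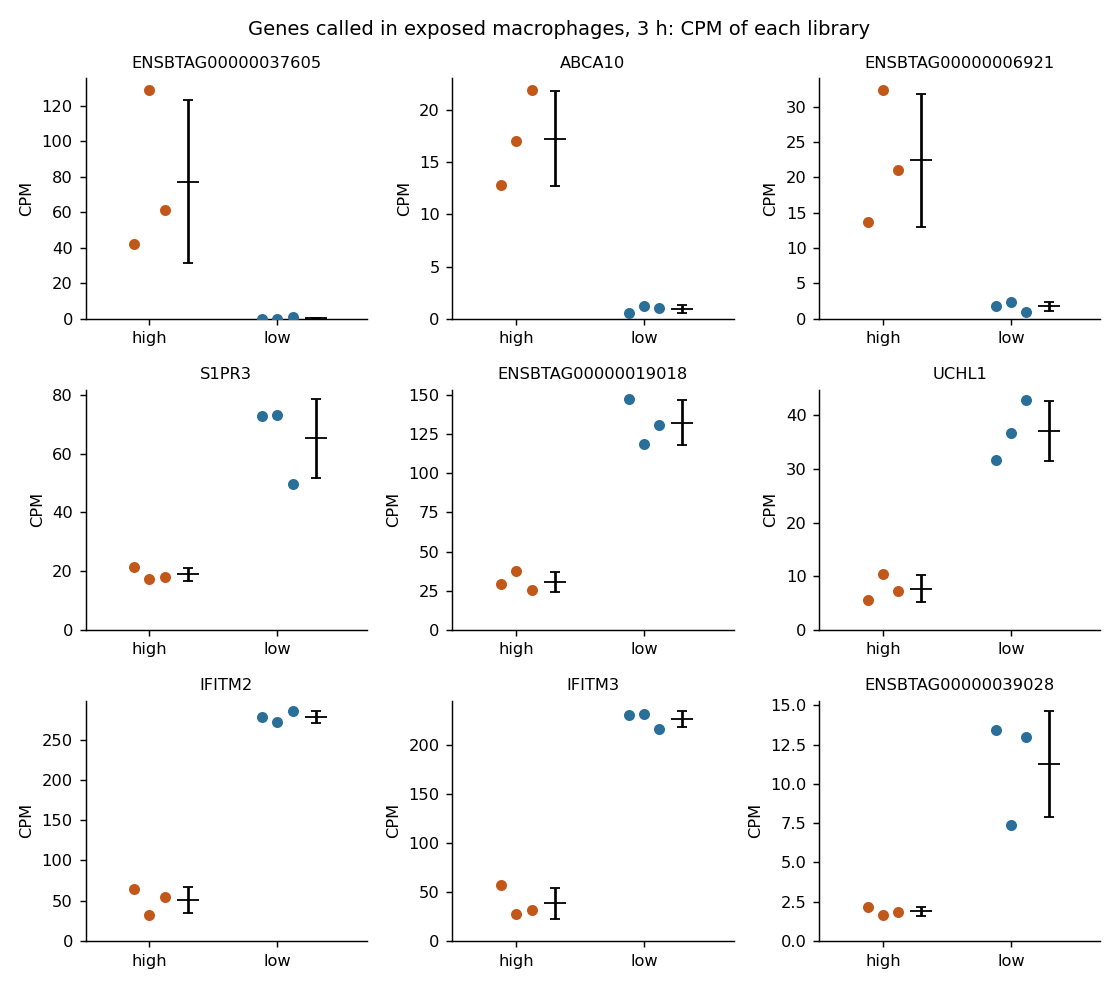
CPM of the 9 called genes in each exposed library of 3 hours, with a linear axis from 0 for each gene. Orange points are the high responder libraries 92, 93 and 94, blue points the low responder libraries 91, 92 and 93, from left to right, and the black bars give the mean and SD of 3 libraries. In none of the 9 genes do the groups overlap.

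The clearest difference towards high responders among genes with a symbol was that of ABCA10 (ENSBTAG00000006937), a transporter of the ATP-binding cassette family. It had 12.8, 17.0 and 21.98 CPM in the high responder libraries 92, 93 and 94, and 0.516, 1.25 and 1.05 CPM in the low responder libraries 91, 92 and 93. All 3 high responders were thus far above all 3 low responders, whose values came from 5, 8 and 16 counts. The log2 fold change was 4.21 (SE 0.38, edgeR adjusted p = 0.0207), a fold of 18.5. The other called genes towards high responders have no symbol here and are named because they were called, after their values were seen. ENSBTAG00000037605 had 41.9, 129 and 61.1 CPM in high responders and 0, 0 and 0.659 CPM in low responders, where 1 library held 10 counts and the others none. Its fitted log2 fold change of 7.94 (SE 0.80, edgeR adjusted p = 0.0212) leans on these few counts. ENSBTAG00000006921 had 13.8, 32.4 and 21.1 CPM in high and 1.86, 2.35 and 0.988 CPM in low responders. Its log2 fold change was 3.76 (SE 0.43, edgeR adjusted p = 0.031).

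Towards low responders, the most abundant called genes were those of the interferon-induced transmembrane family, IFITM2 (ENSBTAG00000019017) and IFITM3 (ENSBTAG00000019015), small membrane proteins that hinder the entry of viruses into cells. IFITM2 had 64.2, 32.6 and 54.8 CPM in the high responder libraries 92, 93 and 94 and 278, 271 and 286 CPM in the low responder libraries 91, 92 and 93. IFITM3 had 56.9, 27.1 and 31.7 CPM in high responders and 230.7, 232 and 217 CPM in low responders. The low responders lay close together in both genes, and each of them held several times the level of any high responder. The log2 fold changes were -2.46 (SE 0.26, edgeR adjusted p = 0.0226) and -2.56 (SE 0.29, edgeR adjusted p = 0.0289), or 5.51-fold and 5.90-fold lower levels in high responders.

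ENSBTAG00000019018, the identifier next to both and called as well, had 29.1, 37.8 and 25.2 CPM in high and 147, 119 and 131 CPM in low responders (log2 fold change -2.11, SE 0.20, edgeR adjusted p = 0.0207). All 3 genes had expected counts that were not whole in each of the 6 libraries, so that RSEM shared read pairs between them and other genes, and the level of each alone is uncertain. Summed into 1 row, a step added after the data were seen, they held 150.2, 97.5 and 112 CPM in high and 656, 622 and 634 CPM in low responders. The log2 fold change of the sum was -2.43 (SE 0.22, edgeR adjusted p = 0.0135), so that the difference did not depend on how reads were split within the 3 rows.

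UCHL1 (ENSBTAG00000005078), a deubiquitinating enzyme best known from neurons, had 5.47, 10.4 and 7.22 CPM in the high responder libraries 92, 93 and 94 and 31.7, 36.8 and 42.9 CPM in the low responder libraries 91, 92 and 93. Its log2 fold change was -2.26 (SE 0.27, edgeR adjusted p = 0.031). S1PR3 (ENSBTAG00000011374), a receptor for sphingosine-1-phosphate, had 21.4, 17.3 and 18.1 CPM in high and 72.9, 73.1 and 49.6 CPM in low responders, and a log2 fold change of -1.78 (SE 0.21, edgeR adjusted p = 0.031). In both genes, the gap between the groups was wider than the spread within either of them. ENSBTAG00000039028, the last called gene and again without a symbol, had 2.19, 1.64 and 1.84 CPM in high and 13.4, 7.36 and 12.98 CPM in low responders (log2 fold change -2.59, SE 0.33, edgeR adjusted p = 0.0475).

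The control wells of the same cows, sequenced as separate libraries, give the background of these differences. All 9 called genes had values there in the same direction and without overlap, against 12.7% of all genes tested in the control wells whose groups did not overlap in either direction. All 9 also had an unadjusted p below 0.05 there, against 7.85% of these genes in either direction. Of the 1370 genes below 0.05 before adjustment in the exposed wells, which were picked in the same cows, 1113 had the same direction in control wells. Of the same 1370, 356 had an unadjusted p below 0.05 in control wells, counted without regard to direction. ABCA10 had a log2 fold change of 4.30 (SE 0.56) between the control wells, IFITM3 of -2.98 (SE 0.56), IFITM2 of -3.11 (SE 0.49), UCHL1 of -1.99 (SE 0.35) and S1PR3 of -2.49 (SE 0.50). The control wells alone called 1 gene, ENSBTAG00000037605 (0.00906% of 11034 genes tested). Whether a difference changed with exposure was tested with a term for each cow in the 12 libraries of 3 hours, in which the control and exposed library of a cow were matched by responder group and library code, a pairing that the labels do not spell out. In this fit, 12.7% of 11264 genes had an unadjusted p below 0.05. Of the 9 genes, IFITM2 alone was among them (log2 change of the difference 0.74, unadjusted p = 0.0344, edgeR adjusted p = 0.366). At 18 hours, 8 of the 9 genes were tested in the exposed wells of the same cows, and all 8 had the same direction and an unadjusted p below 0.05, against 18.2% of all genes tested there in either direction and 626 of the 1331 genes tested there that were below 0.05 before adjustment at 3 hours. The exposed wells of 18 hours alone called 5 genes (0.0446%), ENSBTAG00000037605 among them. ABCA10, the ninth, was too low to be tested there, with 0.997 ± 0.596 CPM in high and 0.662 ± 0.144 CPM in low responders (SD, n = 3). These wells come from the same 6 cows and are no independent animals.

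**Figure D3:**
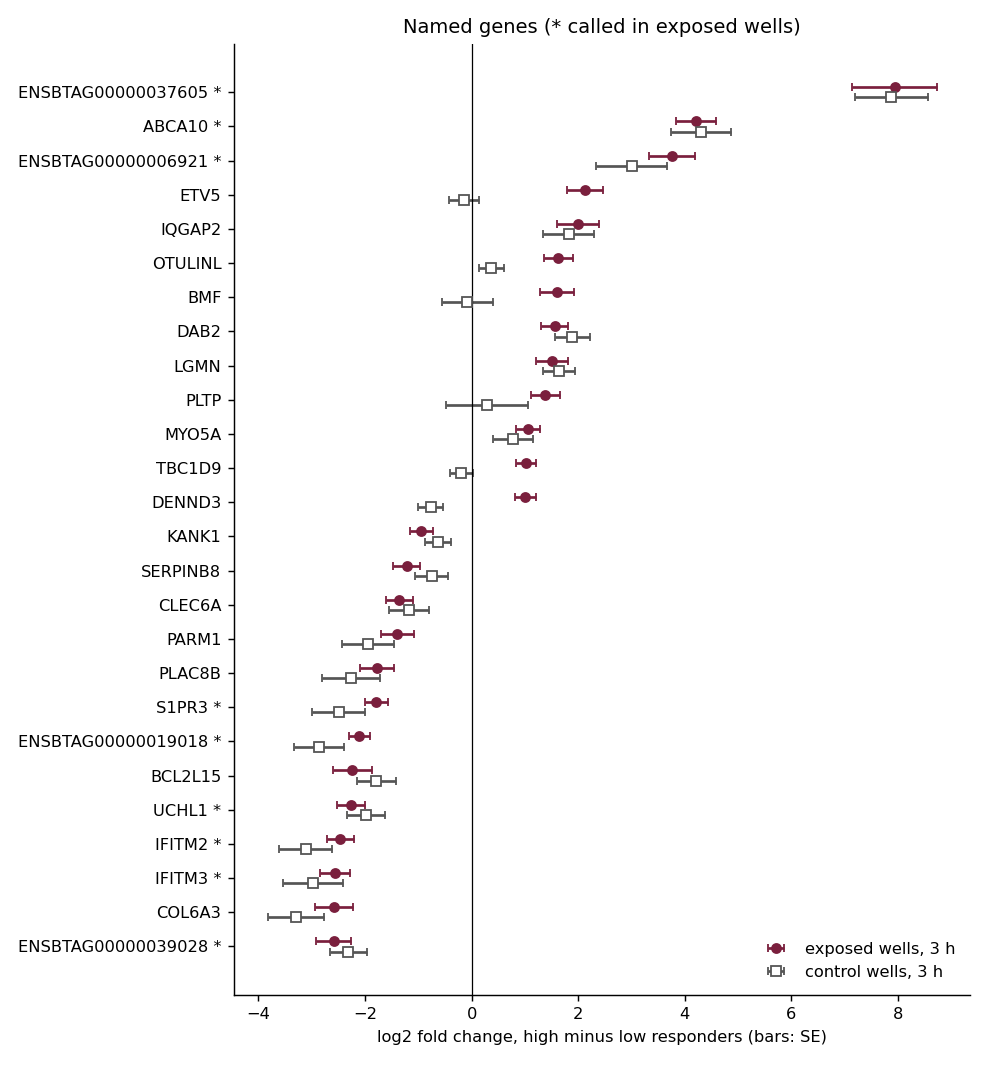
Log2 fold change of high minus low responders in exposed wells (filled circles) and control wells (open squares) of 3 hours, with SE as bars, for the named genes tested in both. Genes marked with an asterisk were called in exposed wells. ABCA10, the IFITM genes and COL6A3 lay on the same side of 0 in both kinds of well, whereas ETV5, BMF and TBC1D9 lay at or below 0 in control wells.

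Below the threshold, the next genes with a symbol whose groups did not overlap are given as values. The 11 genes with higher values in high responders had adjusted p values from 0.107 to 0.172, and the 8 with lower values from 0.0688 to 0.195, and DESeq2 called all of them. They were picked by their difference in the exposed wells, so that what follows describes them and tests nothing. Of the 8 genes with lower values, all had lower values in the control wells of high responders as well, with an unadjusted p below 0.05, and 1 changed with exposure at that level. Of the 11 with higher values, 10 were tested in the control wells, where 3 had higher values at an unadjusted p below 0.05, and 7 of the 11 changed with exposure at that level.

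ETV5, a transcription factor of the ETS family that ERK signals raise, had 100, 64.1 and 71.9 CPM in the high responder libraries 92, 93 and 94 and 9.71, 21.4 and 22.7 CPM in the low responder libraries 91, 92 and 93. Its log2 difference was 2.13 (SE 0.33, edgeR adjusted p = 0.107) in exposed wells, -0.14 in control wells and -0.10 at 18 hours. TBC1D9, of a family of regulators of Rab GTPases, had 916, 982 and 857 CPM in high and 442, 523 and 397 CPM in low responders. Its difference was 1.02 in exposed and -0.19 in control wells of 3 hours, and 1.04 at 18 hours. DENND3, which activates the GTPase Rab12, had 56.0, 80.4 and 78.9 CPM in high and 40.2, 35.2 and 31.6 CPM in low responders. In its case the order of the groups was opposite in control wells, where the log2 difference was -0.77 (unadjusted p = 0.00977). OTULINL, a relative of a linear deubiquitinase, PLTP, which transfers phospholipids between lipoproteins, and BMF, a death-promoting member of the BCL2 family, had differences of 1.63, 1.39 and 1.601 in exposed wells and of 0.37, 0.29 and -0.08 in control wells. STOX1, a DNA-binding protein, had 19.9, 12.8 and 4.77 CPM in high and 1.34, 1.72 and 2.57 CPM in low responders and was too low in control wells to be tested there.

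Another set had higher values in high responders in exposed wells and, at an unadjusted p below 0.05 in LGMN, DAB2 and IQGAP2 but not in MYO5A, in control wells. LGMN had 2585, 3698 and 2360 CPM in the high responder libraries 92, 93 and 94 and 665, 1149 and 1234 CPM in the low responder libraries 91, 92 and 93, with a log2 difference of 1.504 (SE 0.30, edgeR adjusted p = 0.134) in exposed and of 1.64 in control wells. DAB2, an adaptor of endocytosis, had 161, 246 and 188 CPM in high and 49.4, 87.0 and 65.6 CPM in low responders, with differences of 1.56 in exposed and 1.89 in control wells. IQGAP2, a scaffold of the actin skeleton, and MYO5A, a myosin that carries organelles, had differences of 2.00 and 1.06 in exposed wells and of 1.82 and 0.78 in control wells, where the groups overlapped in MYO5A (unadjusted p = 0.0748). At 18 hours, LGMN and DAB2 had log2 differences of 0.14 and 0.25 between the exposed wells, with unadjusted p values of 0.55 and 0.197, and IQGAP2 and MYO5A of 0.98 and 0.33, with unadjusted p values of 0.00327 and 0.0125.

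Among genes with lower values in high responders, COL6A3, a chain of collagen VI, had 3.28, 4.04 and 4.69 CPM in the high responder libraries 92, 93 and 94 and 16.8, 18.5 and 37.2 CPM in the low responder libraries 91, 92 and 93. Its log2 difference was -2.58 (SE 0.36, edgeR adjusted p = 0.0688) in exposed and -3.29 in control wells. CLEC6A, the receptor Dectin-2 for fungal mannans, had 25.8, 24.7 and 20.1 CPM in high and 44.2, 53.5 and 82.3 CPM in low responders. BCL2L15 and PLAC8B had differences of -2.24 and -1.77, and PARM1, KANK1 and SERPINB8 of -1.39, -0.94 and -1.22. That their groups lay apart was a condition of their choice, and it also held, with lower values in high responders, for 10.3% of all tested genes with a symbol.

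By level per length of transcript, given as the TPM of RSEM averaged over the 6 libraries, the most abundant gene was ENSBTAG00000005260, which has no symbol here and reached 23890 TPM. It had 15730, 9233 and 15870 CPM in high and 30890, 30340 and 32110 CPM in low responders, so that the groups lay apart, with a log2 difference of -1.19 (SE 0.27, edgeR adjusted p = 0.195, DESeq2 adjusted p = 0.000287). The chemokines CCL4, CCL3, CXCL2 and CXCL8, which draw lymphocytes, monocytes and neutrophils, followed among genes with a symbol at 22120, 17980, 10120 and 9766 TPM, together with FTH1, the heavy chain of the iron store ferritin, at 16640 TPM. FTH1 had 8634, 12900 and 10290 CPM in high and 6433, 7034 and 8374 CPM in low responders, without overlap and with a log2 difference of 0.54 (edgeR adjusted p = 0.388). FTH1 and CXCL2 had expected counts that were not whole in all 6 libraries, so that their levels share reads with similar genes.

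Of 222 tested members of 19 gene lists, none was called by edgeR, and their lowest adjusted p was 0.107. At an unadjusted p below 0.05, 32 of them were higher and 21 lower in high responders, against 10.3% and 6.68% of the 2186 tested genes with a symbol, and DESeq2 called 19 of the members and 4.20% of the genes with a symbol. The median log2 difference was 0.02 over all genes tested and 0.03 over those with a symbol, and each list below is to be read against these values.

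**Figure D4:**
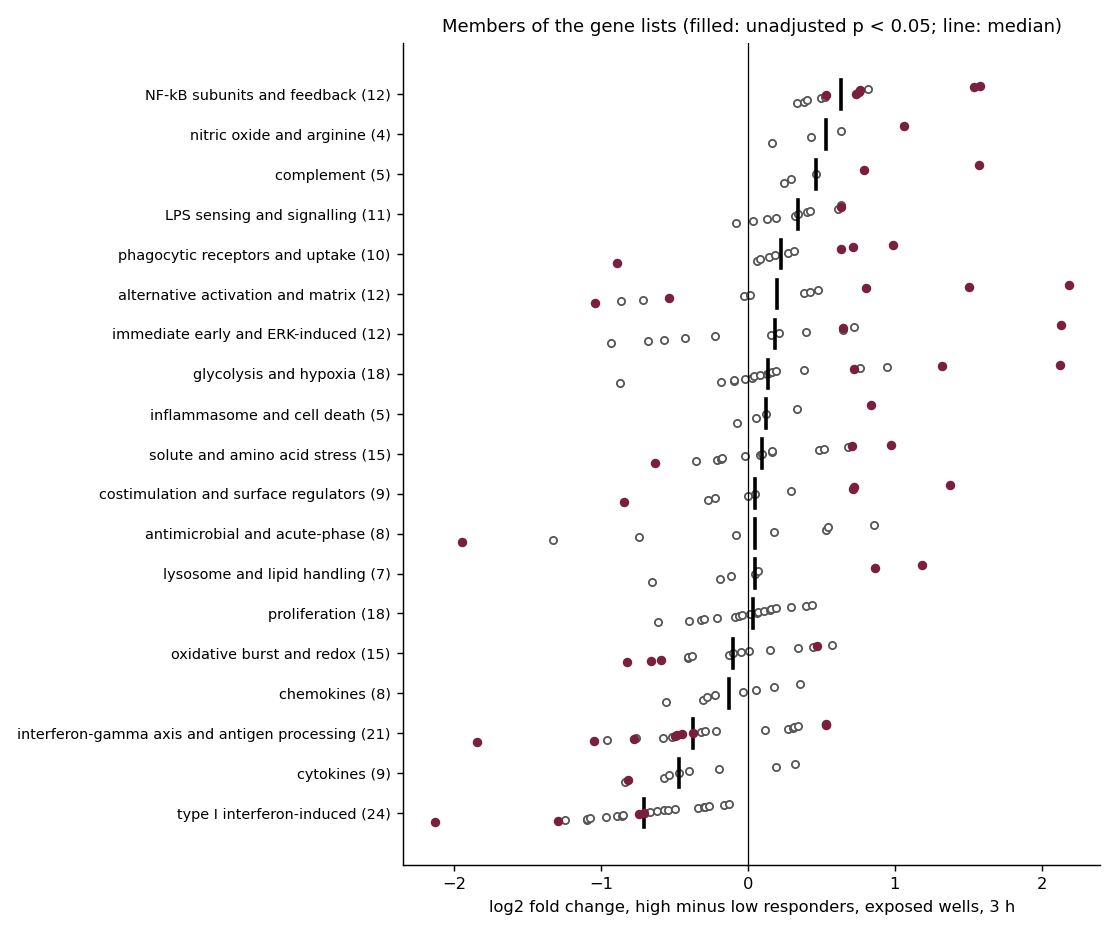
Log2 fold change of high minus low responders in exposed wells of 3 hours for each tested member of 19 gene lists, with the number of members in parentheses. Filled points had an unadjusted p below 0.05 and the black line is the median of the list. The type I interferon-induced genes lie entirely below 0 and the NF-kB genes entirely above 0.

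Of the type I interferon-induced genes, 24 were tested and all 24 had lower fitted values in high responders, with a median log2 difference of -0.71. At an unadjusted p below 0.05, 4 of the 24 were lower, and in 7 the groups did not overlap (10.3% of all tested genes with a symbol). ISG15, a ubiquitin-like protein that is joined to other proteins after interferon, had 1142, 995 and 271 CPM in the high responder libraries 92, 93 and 94 and 2060, 1866 and 1212 CPM in the low responder libraries 91, 92 and 93. Its log2 difference was -1.09 (unadjusted p = 0.0502), and the high responder library 94 stood lowest. ISG20, a nuclease that degrades RNA, had 8.13, 3.93 and 1.84 CPM in high and 28.5, 18.8 and 11.5 CPM in low responders (log2 difference -2.13, unadjusted p = 0.00359, DESeq2 adjusted p = 0.0041). IFI35 had 70.3, 64.6 and 46.2 CPM in high and 103, 105 and 87.9 CPM in low responders. IFIT1, which binds viral RNA, had 1516, 766 and 244 CPM in high and 1184, 1791 and 1043 CPM in low responders, and its groups overlapped through library 92.

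These levels depended strongly on single high responder libraries. The median of the list was -1.34 without the high responder library 92, in which ISG15, ISG20, IFI35 and IFIT1 had their highest values among high responders, and -0.38 without the high responder library 94, where 20 of 24 members remained below 0. It lay between -0.91 and -0.59 under the other alternatives tried except the block by library code, where it was -0.43 and 5 members lay above 0. Without the low responder library 92, 2 members lay above 0. Between the control wells, the median was -1.53, all 24 had lower values and 22 an unadjusted p below 0.05, against 10.2% of the genes with a symbol that were lower there at that level. The difference moved towards 0 with exposure in all 24 genes, 15 of them with an unadjusted p below 0.05 in the fit with a term for each cow, where 15.2% of the genes with a symbol changed in that direction at that level. At 18 hours, 21 of the 24 had lower values in exposed high responders, 11 with an unadjusted p below 0.05, against 11.9% of the genes with a symbol.

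**Figure D5:**
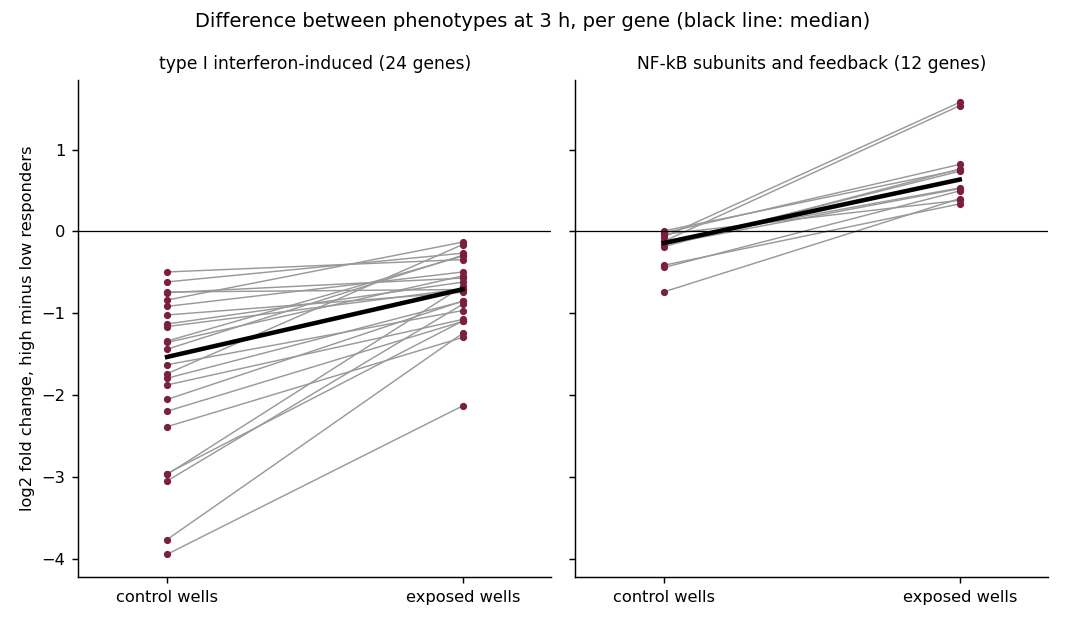
Log2 fold change of high minus low responders at 3 hours in control and exposed wells for the type I interferon-induced genes (left, 24 genes) and the NF-kB genes (right, 12 genes). Each grey line is 1 gene and the black line joins the medians, which are -1.53 and -0.71 on the left and -0.14 and 0.63 on the right.

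Genes of the interferon-gamma axis and of antigen processing had a median difference of -0.38 over 21 tested members, of which 7 were lower and 2 higher at an unadjusted p below 0.05. WARS, the tryptophanyl-tRNA synthetase that interferon-gamma raises, had 746, 580 and 517 CPM in the high responder libraries 92, 93 and 94 and 1528, 1300 and 979 CPM in the low responder libraries 91, 92 and 93 (log2 difference -1.05, edgeR adjusted p = 0.195, DESeq2 adjusted p = 0.00222). PSMB9, a subunit of the immunoproteasome, had 23.4, 20.7 and 28.3 CPM in high and 43.1, 42.0 and 39.3 CPM in low responders. Both groups lay apart in these genes. B2M, the light chain of class I molecules, overlapped between the groups, with 3841 ± 933 CPM in high and 4799 ± 207 CPM in low responders (SD, n = 3).

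NF-kB subunits and feedback genes lay on the other side. All 12 tested members had higher fitted values in high responders, with a median of 0.63, and 6 of them had an unadjusted p below 0.05. TNIP3, an inhibitor of NF-kB signals, had 61.9, 85.8 and 112 CPM in the high responder libraries 92, 93 and 94 and 11.5, 20.98 and 53.8 CPM in the low responder libraries 91, 92 and 93 (log2 difference 1.58, unadjusted p = 0.013, DESeq2 adjusted p = 0.046), and its difference was 2.43 without the low responder library 93. BIRC3, a ubiquitin ligase that restrains cell death, had 2133, 2432 and 2518 CPM in high and 989, 1630 and 1583 CPM in low responders. TNIP1 had 1065, 1822 and 1297 CPM in high and 909, 1050 and 1008 CPM in low responders, so that its groups came close to each other. Without the high responder library 93 the median of the list was 0.25, with 11 of 12 members above 0, and without library 92 it was 0.71. In the control wells the median was -0.14, with no member at an unadjusted p below 0.05, and 9 of the 12 differences rose with exposure at that level, as did 15.2% of all tested genes with a symbol. Of the genes that sense lipopolysaccharide and carry its signal, 10 of 11 had higher values in high responders, with a median of 0.34 and 1 at an unadjusted p below 0.05. Without the low responder library 91 the median was 0.22, and without the high responder library 92, 8 of the 11 had higher values. The member with an unadjusted p below 0.05 was TLR2, a receptor for bacterial lipoproteins, with 446, 389 and 384 CPM in high and 172, 272 and 343 CPM in low responders. The kinase MAP3K8, with a log2 difference of 0.64, overlapped between the groups.

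For the nitric oxide and arginine genes, 4 were tested and all had higher values in high responders, with a median of 0.53, which was 0.34 without the high responder library 93. NOS2 had 1543, 1692 and 1273 CPM in the high responder libraries 92, 93 and 94 and 665, 1381 and 860 CPM in the low responder libraries 91, 92 and 93. The groups overlapped, since the low responder library 92 was above the high responder library 94, and the log2 difference was 0.63 (SE 0.29, unadjusted p = 0.0568, DESeq2 adjusted p = 0.345), and between 0.41 and 0.96 with any 1 library left out. Between the control wells, NOS2 was near the floor, with 3.97 ± 1.56 CPM in high and 7.92 ± 1.45 CPM in low responders (SD, n = 3). The log2 difference there was -0.97 (edgeR unadjusted p = 0.0375). It changed with exposure by 1.64 in the fit with a term for each cow (edgeR unadjusted p = 0.000595, adjusted p = 0.0781). Between the exposed wells of 18 hours, the log2 difference of NOS2 was 1.28 (edgeR unadjusted p = 0.00193, adjusted p = 0.0944). ASS1 had 30.3, 39.6 and 49.4 CPM in high and 16.4, 19.1 and 21.7 CPM in low responders, without overlap, and a log2 difference of 1.06 (unadjusted p = 0.00151, DESeq2 adjusted p = 0.0102). Its difference was 1.23 in control wells. ARG2, the mitochondrial arginase, had a log2 difference of 0.17 and overlapped.

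Most cytokine and all chemokine genes tested overlapped between the groups. Of 9 cytokine genes, 1 had an unadjusted p below 0.05, LIF, with 45.5, 33.1 and 17.8 CPM in high and 57.6, 61.1 and 50.2 CPM in low responders, and the median of the list was -0.47. INHBA, the beta A subunit of activin, had a log2 difference of -0.47, and between -0.67 and -0.20 with any 1 library left out. IL1B, the most abundant of them, had 8131, 11340 and 2529 CPM in the high responder libraries 92, 93 and 94 and 4441, 7087 and 7704 CPM in the low responder libraries 91, 92 and 93. Its highest and its lowest value thus both came from high responders. None of 8 chemokine genes had an unadjusted p below 0.05, and the median was -0.13. This median turned to 0.17 without the high responder library 94, where 6 of the 8 members lay above 0, and to 0.22 with the block by library code, and it was -0.38 without the high responder library 93. CXCL8, the main chemokine for neutrophils, had 11000, 13040 and 6969 CPM in high and 9353, 10040 and 10460 CPM in low responders, and CCL3, CCL4 and CXCL2 overlapped likewise, with log2 differences of -0.22, -0.03 and 0.35. The spread among high responders was larger than that among low responders in these 5 abundant genes, with library 94 lowest in each of them. CCRL2, a chemokine-binding receptor, had a log2 difference of -0.56, and between -0.75 and -0.30 with any 1 library left out.

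Of the 10 phagocytic receptor and uptake genes, 3 were higher and 1 lower at an unadjusted p below 0.05. CLEC4E, the receptor Mincle for mycobacterial glycolipids, had 39.4, 25.9 and 26.6 CPM in high and 45.1, 63.7 and 61.3 CPM in low responders (DESeq2 adjusted p = 0.032). It lay on the same side as CLEC6A, its neighbour in the family of C-type lectins. SCARB2, a lysosomal membrane protein, overlapped with a log2 difference of 0.31. Of 15 oxidative burst and redox genes, 1 was higher and 3 were lower at an unadjusted p below 0.05, among them the peroxiredoxin PRDX5 at 224, 218 and 267 CPM in high and 421, 303 and 342 CPM in low responders. CYBB, the catalytic subunit of the NADPH oxidase, overlapped between the groups with a log2 difference of -0.38.

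In the inflammasome and cell death list, 1 of 5 genes had an unadjusted p below 0.05. NAIP, a sensor of bacterial flagellin and secretion needles, had 416, 463 and 401 CPM in high and 160, 282 and 274 CPM in low responders, while NLRP3 overlapped with a log2 difference of 0.34. That of NLRP3 lay between 0.08 and 0.62 with any 1 library left out. Among 8 antimicrobial and acute-phase genes, 1 was lower at that level. S100A12, a calcium-binding alarmin, had 54.2, 29.3 and 71.2 CPM in high and 79.3, 134 and 382 CPM in low responders (log2 difference -1.95, DESeq2 adjusted p = 0.00916), with a wide spread among low responders. Without the low responder library 93 the log2 difference of S100A12 was -1.05. ACOD1, which makes itaconate, had 4089, 3642 and 2824 CPM in high and 1883, 3034 and 2390 CPM in low responders and overlapped, and CHI3L1, a chitinase-like secreted protein, overlapped with a log2 difference of 0.86. With any 1 library left out, the difference of CHI3L1 lay between 0.34 and 1.29. Of 5 complement genes, 2 were higher at an unadjusted p below 0.05, among them CD55, which shields cells from complement, at 290, 272 and 298 CPM in high and 112, 183 and 203 CPM in low responders.

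Of 18 glycolysis and hypoxia genes, 3 were higher at an unadjusted p below 0.05 and none lower. PFKFB3, which drives glycolysis by making fructose-2,6-bisphosphate, had 566, 1211 and 1022 CPM in the high responder libraries 92, 93 and 94 and 235, 384 and 503 CPM in the low responder libraries 91, 92 and 93 (DESeq2 adjusted p = 0.0173). CA12, a carbonic anhydrase, had 3.75, 4.48 and 16.98 CPM in high and 1.65, 1.41 and 2.64 CPM in low responders, with a log2 difference of 2.12 that was 1.06 without the high responder library 94. The median of the list was 0.14, but 0.053 with upper-quartile factors, and between 0.058 and 0.16 with any 1 library left out, and the enolase ENO1, among its most abundant genes, had a log2 difference of 0.13. Of 7 lysosome and lipid genes, 2 were higher at that level, among them ABCA1. ABCA1, which exports cholesterol from macrophages, had 352, 480 and 543 CPM in high and 148, 254 and 203 CPM in low responders (DESeq2 adjusted p = 0.0031). LPL, a lipase, had 2533, 910 and 2739 CPM in high and 3485, 3141 and 3106 CPM in low responders, and its log2 difference of -0.65 had an unadjusted p of 0.118 although the groups did not overlap. With any 1 library left out, the difference of LPL lay between -0.92 and -0.31.

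Of 12 genes of alternative activation and matrix, 3 were higher and 2 lower at an unadjusted p below 0.05. IL4R, the receptor of interleukin 4, had 202, 276 and 254 CPM in high and 122, 132 and 164 CPM in low responders (DESeq2 adjusted p = 0.0281), and MMP14, a membrane-bound matrix protease, overlapped with a log2 difference of 0.48. The difference of MMP14 lay between 0.30 and 0.59 with any 1 library left out. Of 9 costimulation and surface genes, 3 were higher and 1 lower at that level. CSF2RB, the shared beta chain of the GM-CSF receptor, had 49.2, 126 and 61.2 CPM in high and 25.4, 29.7 and 36.03 CPM in low responders (DESeq2 adjusted p = 0.0146), and its log2 difference of 1.37 was 0.85 without the high responder library 93. CD48, a ligand on blood cells, had 268, 213 and 179 CPM in high and 382, 459 and 342 CPM in low responders (DESeq2 adjusted p = 0.0157). ICAM1, an adhesion molecule that NF-kB raises, had 1172, 2269 and 1065 CPM in high and 801, 1087 and 838 CPM in low responders, so that its groups overlapped.

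Of 12 immediate early and ERK-induced genes, 2 were higher at an unadjusted p below 0.05, ETV5 and JUN, and the median was 0.18. Without the high responder library 93 it was -0.32, with 5 of the 12 members above 0. JUN, a subunit of the factor AP-1, had 181, 384 and 307 CPM in high and 179.8, 161 and 216 CPM in low responders, so that library 92 lay among the low responders, and the stress factor ATF3 had a log2 difference of -0.23. Of 15 solute carrier and amino acid stress genes, 2 were higher and 1 lower at that level. DDIT4, an inhibitor of mTOR that stress raises, had 367, 491 and 615 CPM in high and 215, 211 and 322 CPM in low responders (DESeq2 adjusted p = 0.0287), and HSPA5, the main chaperone of the endoplasmic reticulum, had 614, 519 and 441 CPM in high and 1000.0, 815 and 626 CPM in low responders. Of 18 proliferation genes, none had an unadjusted p below 0.05, the median was 0.04 and lay between -0.17 and 0.26 under the alternatives tried, and UHRF1, which maintains DNA methylation during replication, came closest with a log2 difference of 0.44.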

How the data were processed

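MDMs of 3 high and 3 low responder Holstein cows were cultured with or without E. coli for 3 or 18 hours, and the 6 exposed libraries of 3 hours were compared here, with the 12 control and exposed libraries of 3 hours and the exposed libraries of 18 hours for values beside. The authors made stranded libraries, trimmed read pairs with Trimmomatic, checked them with FastQC 0.11.5, mapped them with STAR to UMD 3.1 (Ensembl genes) and quantified them with RSEM. The deposited tables hold expected counts, which are not normalized, effective lengths, which are RSEM's own measure in bases and not a level, and TPM, scaled by the authors' software per library and length. The study tested differences with DESeq2 1.22.2 after correction for control wells. The main comparison here was not corrected, and a change of the difference from control to exposed wells was tested apart, with a term for each cow (wells matched by responder group and library code).

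Expected counts were rounded and analysed in R 4.3.3 with edgeR 4.0.16: filterByExpr by phenotype, TMM, a quasi-likelihood fit of the 6 libraries without covariates (common biological coefficient of variation 0.268), the quasi-likelihood test and Benjamini-Hochberg adjustment over the 10726 genes tested. A gene was called at an adjusted p below 0.05 and a fold change above 1.5. The study's methods give 0.1 for the adjusted p and its counts of genes use 0.05. CPM are TMM-normalized over these 6 libraries, and those of other wells over all 24. SE were taken from the fold change and the F statistic. Exact permutation tests of totals and marker sums used scipy 1.17.1. P values between the groups in 6 libraries measure the spread between 3 cows per group, which edgeR moderates across genes. Those of the change with exposure, from the fit with a term for each cow, measure the spread of the change from control to exposed well. No 2 libraries were alike: their log2 CPM correlated between 0.925 and 0.972 across genes. In counts simulated for this comparison over 10726 genes, with 50 genes changed per fold size, edgeR recovered 13 at 2-fold and 47 at 4-fold, with 4 false calls in all, and DESeq2 20 and 47, with 11. The simulated spread followed a trend over level, without a spread of its own for each gene and without an outlying library. These counts therefore do not give the share found in the real libraries, where COL6A3, 5.99-fold lower in high responders, was not called by edgeR.

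Named genes were, per direction, 12 tested genes with a symbol, without overlap and with at least 5 CPM on average, called ones first and then those of lowest p, up to 4 members of each list (the 2 of lowest p and the 2 of highest CPM) and NOS2, and the most abundant genes by TPM. Called genes without a symbol were added after their values were seen, and so were values of markers. The members and lists were chosen with earlier results of these data known. Symbols of 2802 of 24616 identifiers came from shortened copies (1997 rows each) of supplementary tables, whose columns of the authors' comparisons were not used, so that list members beyond them were not analysed here. Results for some genes are not reported. Alternatives were other size factors, filters, tests (DESeq2 1.42.0, limma 3.58.1), length offsets, more libraries in the fit, covariates, thresholds, thinning and leaving out each library.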

Additional observations from a re-analysis of the deposited data

Results flagged for a closer look

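In 5 named genes, the difference between high and low responders was not the same in exposed as in control wells of 3 hours, by edgeR's quasi-likelihood test of the change with a term for each cow (wells matched by responder group and library code, which the labels do not spell out), past an adjusted p of 0.05 over 11264 genes and a fold of 1.5 (20 genes, 0.178%). The change was 2.28 on the log2 scale for ETV5 (SE 0.26, adjusted p = 0.0224) and 1.78 for DENND3 (SE 0.18, adjusted p = 0.0224). In DENND3 the order of the groups was opposite in the 2 kinds of well. In ETV5 the groups overlapped in control wells, with a log2 difference of -0.14. The change was 2.59 for IFIT1 (SE 0.32, adjusted p = 0.0265), which had lower means in high responders with E. coli and without it, but less so with it. It was 2.04 for NAIP (SE 0.24, adjusted p = 0.0265) and 1.77 for ACOD1 (SE 0.24, adjusted p = 0.0279), which had lower values in high responders in control wells, with log2 differences of -1.17 and -1.20, and higher values in exposed wells, with 0.84 and 0.53. None of these 5 genes was called in the exposed wells alone by edgeR, and DESeq2 called ETV5 and DENND3 there.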

How the results depend on the processing

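The count of 9 called genes was 51 with no filter on low counts, 132 with 24 libraries in 1 fit, 283 with DESeq2, 5 with limma-voom and 15 at an adjusted p below 0.1, and it ranged from 0 to 72 over the fits that left out 1 library. The fit of 24 libraries had no term for cow and counted wells of the same cow as independent, so that its p values can be too small. DESeq2 with 1 library left out, added after the data were seen, called between 92 (without the low responder library 91) and 639 (without the high responder library 92), with 109, 187, 206 and 272 in the others. With a replicate block by library code, 0 genes were called and 614 had an unadjusted p below 0.05. The codes shared between the groups belong to different cows. Deviations of libraries with the same code correlated at 0.16 and -0.283, against -0.36 to 0.191 for different codes. With only 2 shared codes, these values cannot decide whether libraries of the same code have an effect in common. Of 222 list members, 19 were called by DESeq2, which called 4.20% of all tested genes with a symbol. Of the same members, edgeR called 1 with no filter, and between 0 and 2 with 1 library left out. With any 1 library left out, ABCA10 was called in 4 of 6 fits, IFITM2, UCHL1 and S1PR3 in 2 and IFITM3 in 1, with a log2 fold change from 3.90 to 4.36 for ABCA10 and from -2.98 to -2.37 for IFITM3. Signs turned in genes near 0. CXCL8 was -0.0394 with upper-quartile factors, CCL3 0.21 and CCL4 0.37 with the replicate block, and CCL4 0.10 with a term for codes 91 and 92 against 93 and 94. With 1 library left out, IL1B ranged from -0.27 to 0.59, CXCL8 from -0.15 to 0.26, CCL3 from -0.56 to 0.0037 and CCL4 from -0.26 to 0.27. In the same fits, signs held but values moved in SCARB2 (0.17 to 0.51), CYBB (-0.61 to -0.23) and ATF3 (-0.38 to -0.02). The same was true of ARG2 (0.02 to 0.32), CXCL2 (0.20 to 0.56), ENO1 (0.04 to 0.16) and ISG15 (-1.47 to -0.69). The cause of these shifts was not tested. With 3 cows per group, differences near 2-fold are mostly below what the test can call, and some larger ones were not called either, such as that of COL6A3 (5.99-fold lower in high responders).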
